A study of Mus musculus with 16 samples.

Results

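The 10 loci examined here belong to genes that are widely used as markers of stromal fibroblasts: Acta2, Tagln, Fap, Pdpn, Thy1, Postn, Lum, Dcn, Pdgfra and Pdgfrb. A peak was taken as a member where the protein-coding transcription start site nearest to its midpoint, within 100 kb, belonged to one of these genes. This gave 77 of 136630 nuclear peaks, of which 18 lay at Dcn, 10 at Thy1, 8 each at Postn, Pdpn and Pdgfra, 7 at Acta2, 6 at Fap, 5 at Pdgfrb, 4 at Lum and 3 at Tagln. By position, 48 of them were intergenic, 14 intronic, 13 in promoters (an edge within 1000 bp of a start site) and 2 exonic. No peak reached the start sites of Thy1 or Postn, where the nearest peak edge lay 2711 and 2005 bp away. A further 26 peaks had a member gene as nearest start site but lay beyond 100 kb and were not counted.

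Fibroblasts build the fibrous stroma that surrounds pancreatic ductal adenocarcinoma (PDAC). They are recognised by contractile proteins, by surface proteins and proteases, by the matrix proteins they secrete and by receptors for platelet-derived growth factor (PDGF), and myofibroblasts among them are driven by TGFβ, whose signals SMAD4 carries to DNA. Carcinoma cells that undergo epithelial-mesenchymal transition (EMT) can switch on some of the same genes, so openness at these loci does not on its own identify a cell type.

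Accessibility was measured by ATAC-seq, in which a transposase cuts open chromatin, on 60000 mKate2+ cells per sample isolated by FACS from KC-shSmad4 tumours. The cells came from tumour lines of mice with Ptf1a-Cre, a Cre-activated Rosa26 rtTA3-IRES-mKate2 allele and, at the Col1a1 locus, a doxycycline-inducible cassette with a GFP-linked shRNA against Smad4. Ptf1a-Cre acts in the pancreatic epithelial lineage, so mKate2 marks its descendants. Lines carrying luciferase were injected into the pancreas (Panc), into the spleen followed by splenectomy (Liv, liver metastases) or into the tail vein (Lung, lung metastases) of female athymic nude mice aged 6 to 8 weeks, which lack mature T cells. Smad4 stayed off under doxycycline chow in the OFF groups. In the ON groups the drug was withdrawn after 4 weeks in Panc, 5 weeks in Liv and 6 weeks in Lung, and cells were taken 14 days later by the labels, whereas the names of the lung columns say day 15. The table names its columns by doxycycline, and those with the drug were read as OFF and those without it as ON. Accessibility of the Smad4 gene does not check the shRNA, which acts on the transcript, so the OFF and ON labels were not tested in these data. Organ, route of injection and growth time therefore went together and cannot be told apart. Each sample was from its own mouse, with n = 3 in Panc_OFF, Panc_ON, Lung_OFF and Lung_ON and n = 2 in Liv_OFF and Liv_ON.

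Between 23.0 and 38.2 M reads per sample fell in peaks, and a member peak held 101 to 14609 reads over the 16 samples (median 924). Of the 77 peaks, 7 had 0 reads in at least 1 sample. Libraries Panc_ON_3 and Lung_OFF_1 stood apart from their replicates. Chi-square per degree of freedom of the reads was 22.0 and 14.9 for the pairs with Panc_ON_3 and 19.8 and 17.9 for those with Lung_OFF_1, against 3.72 to 8.74 for the other replicate pairs. The sorted cells carried open start sites of all 6 epithelial tumour genes looked at (Krt8, Krt18, Krt19, Krt7, Epcam and Cdh1). Summed normalised counts (reads divided by each library's size factor) there were 12409 to 20631 in Panc, 34225 to 45694 in Liv and 19351 to 29265 in Lung. In a bulk sample, fewer cells with an open site and a site less open in each cell cannot be told apart, nor can the cell of origin of a read.

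Short stretches of 6 peaks are printed first because they carry the contrast described below: with Smad4 off, some loci hold peaks that were lower than in the pancreas in liver metastases and not called in the lungs, beside peaks that were lower in both metastatic sites. The former pattern was found at 27.3% of the members and 22.4% of all nuclear peaks, so its share was near the background. The latter was found at 46.8% and 9.27%. Bases are from the RefSeq GRCm38 (mm10) genome, plus strand, 5′ to 3′, and capitals mark matches to the AP-1 consensus TGANTCA, whose reverse complement is the same pattern. The first 4 stretches lie in peaks of the former kind, at chr10:97537308-97537427, chr10:97556004-97556123, chr10:97446640-97446759 and chr10:97475541-97475660. The last pair lies in peaks that were lower in both, at chr10:97409554-97409673 and chr3:54432154-54432273, and neither peak holds a match along its whole width. That pair does not stand for its kind, since 12 of the 36 member peaks lower in both held a match. Of the 21 of the former kind, 19 did.
Lum, 27.7 kb upstream: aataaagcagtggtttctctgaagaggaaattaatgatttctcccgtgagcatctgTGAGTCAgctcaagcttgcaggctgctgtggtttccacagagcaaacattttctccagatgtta
Lum, 9.16 kb upstream: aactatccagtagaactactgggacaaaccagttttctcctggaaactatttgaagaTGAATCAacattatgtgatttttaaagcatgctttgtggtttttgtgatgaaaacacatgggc
Dcn, 33.0 kb upstream: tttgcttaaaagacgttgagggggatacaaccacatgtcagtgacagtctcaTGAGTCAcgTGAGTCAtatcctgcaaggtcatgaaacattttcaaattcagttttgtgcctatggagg
Dcn, 4.10 kb upstream: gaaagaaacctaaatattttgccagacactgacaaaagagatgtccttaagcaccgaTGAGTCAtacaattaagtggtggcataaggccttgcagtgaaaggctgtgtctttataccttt
Dcn, 70.0 kb upstream: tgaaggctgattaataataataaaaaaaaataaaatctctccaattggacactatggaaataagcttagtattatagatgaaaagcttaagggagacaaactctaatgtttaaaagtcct
Postn, 71.1 kb downstream of the start site: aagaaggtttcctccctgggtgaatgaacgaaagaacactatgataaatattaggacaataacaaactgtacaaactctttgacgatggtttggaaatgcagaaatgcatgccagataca
The first 4 stretches were placed around their matches and the last pair at the centres of their peaks, so the printed windows are not a comparison of like positions. Along its whole width a peak held the motif in 51.4% of all nuclear peaks, and in its central 120 bases in 20.3%. A match is a run of letters and does not show that a factor was bound.

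To ask whether fibroblast marker loci were as open in metastases as in primary tumours, the groups were compared with Smad4 off. Most member peaks were less accessible in liver metastases than in pancreatic tumours. Of the 77 peaks, 58 were lower and 7 higher in Liv_OFF than in Panc_OFF (84.4% called, against a background of 58.5% of all nuclear peaks; by limma, where a call took a log2 change of 0.58 or more in size and an adjusted p no higher than 0.1). The 58 lower peaks made 75.3% of the members where 32.3% of all peaks were lower, and the 7 higher peaks stood against a background of 26.2%. The median log2 fold change of the 77 was −2.06, against −0.05 over all peaks. In lung metastases the shift was smaller: 36 peaks were lower and 4 higher in Lung_OFF than in Panc_OFF (51.9% called, background 17.3%, of which 10.7% lower and 6.59% higher), with a median of −1.08 against 0.03 over all peaks. Between the metastatic sites, 20 peaks were lower and 7 higher in Liv_OFF than in Lung_OFF (35.1% called, background 49.7%, of which 26.8% lower and 22.9% higher), so that the share called was below that of all peaks, with a median of −0.35 against 0.00. The comparisons with the pancreas share the Panc_OFF samples and are given side by side, not as independent evidence of each other.

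**Figure D1:**
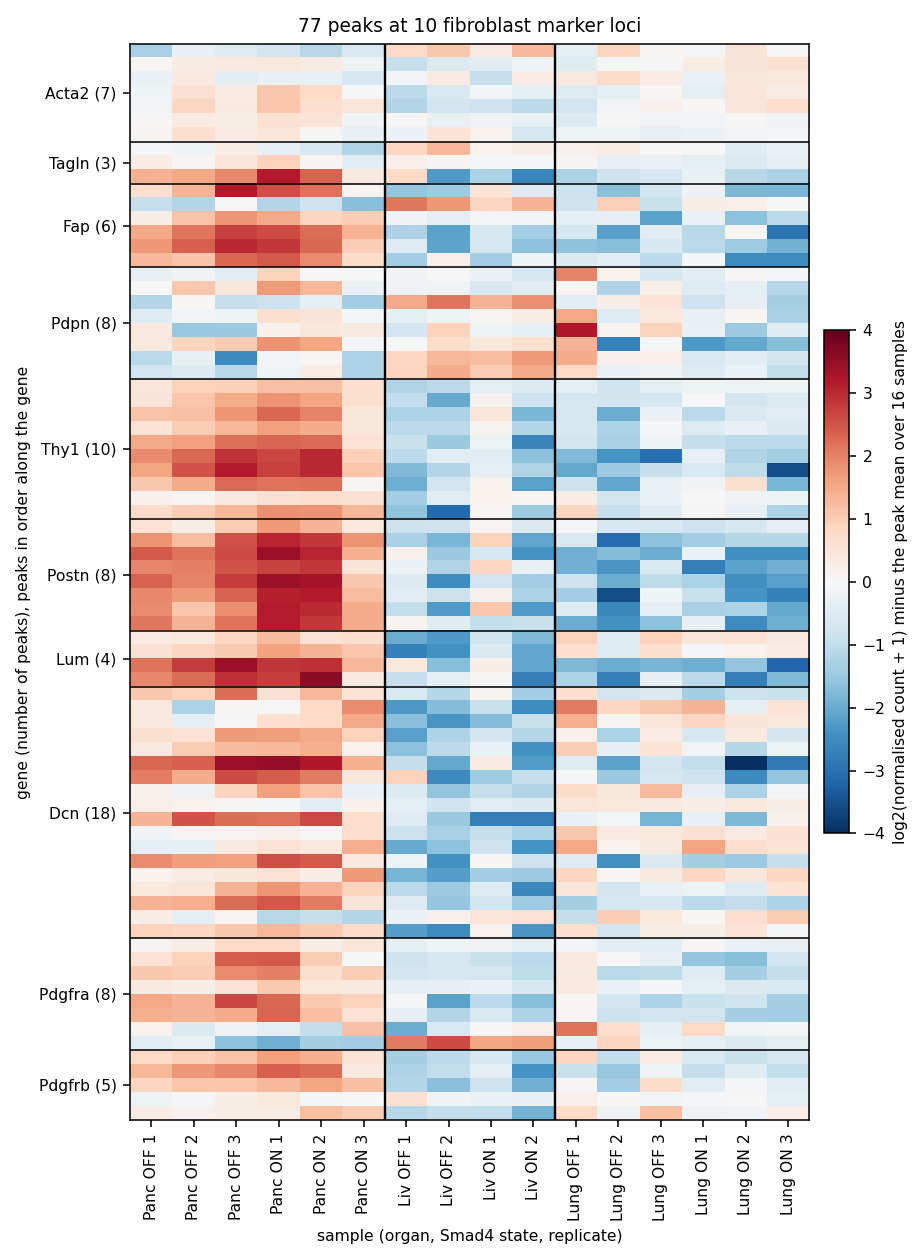
Each row is 1 of the 77 peaks, ordered along its gene, and each column 1 of the 16 samples. Colour gives log2(normalised count + 1) minus the mean of that peak over the samples, from −4 (blue) to 4 (red); the pancreas columns are mostly red at Fap, Thy1, Postn, Lum, Dcn, Pdgfra and Pdgfrb, with Panc ON 3 paler than most, while Acta2 varies little and several Pdpn peaks are reddest in the liver or in Lung OFF 1.

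With Smad4 restored, member peaks were again mostly lower in the metastatic sites than in the pancreas. In Liv_ON, 55 peaks were lower and 8 higher than in Panc_ON (81.8% called, background 59.4%, of which 32.2% lower and 27.1% higher), with a median of −2.13. In Lung_ON, 48 were lower and 4 higher than in Panc_ON (67.5% called, background 27.8%, of which 14.9% lower and 12.8% higher), with a median of −1.65. Liv_ON and Lung_ON differed at 21 peaks, of which 15 were lower and 6 higher in Liv_ON (27.3% called, background 35.8%, of which 18.2% lower and 17.6% higher). The split from the pancreas could also be read sample by sample. The 6 Panc samples lay above all 4 Liv samples at 47 peaks (background 26.4%) and above all 6 Lung samples at 36 peaks (background 8.28%). They lay above all 10 metastatic samples at 31 peaks (background 7.03%): 7 at Postn, 6 each at Thy1 and Dcn, 4 each at Fap and Pdgfra and 2 each at Lum and Pdgfrb. The 4 Liv samples lay above all 6 Panc samples at 6 peaks (background 26.2%) and, against the 6 Lung samples, below all of them at 10 peaks (background 14.8%) and above all at 3 (background 21.7%).

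**Figure D2:**
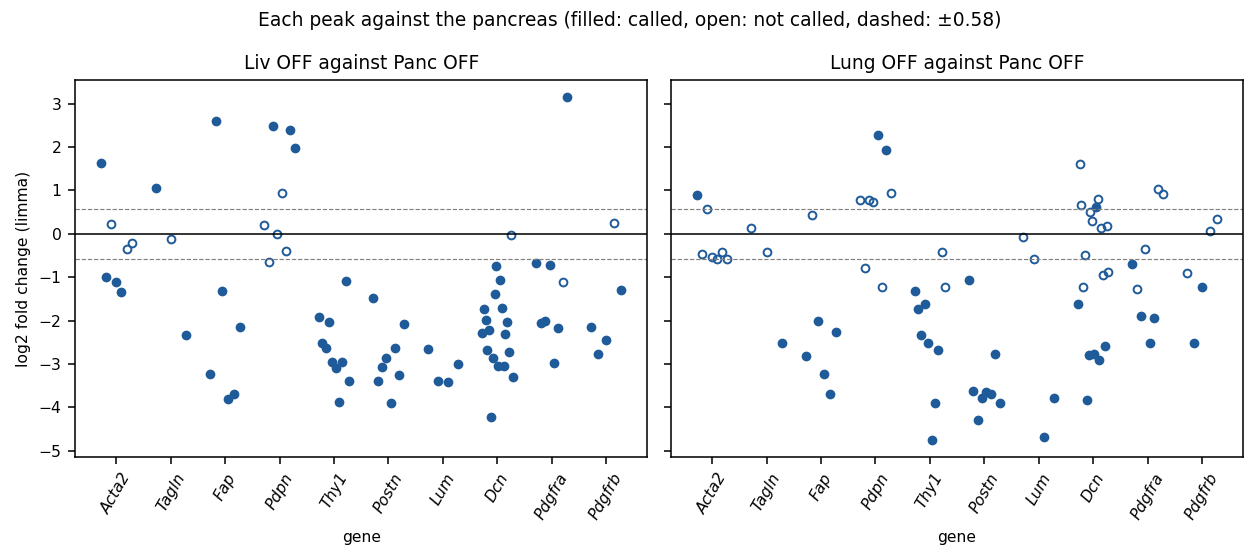
Each point is a peak of the named gene, plotted by its limma log2 fold change against Panc OFF in Liv OFF (left) and in Lung OFF (right); filled points were called. Postn and Fap sit far below 0 in both panels apart from 1 raised Fap peak, Dcn spreads from −3.84 to 1.60 in the lungs, and no Pdpn point is a filled one below 0.

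The contractile genes did not share a single pattern. Acta2 encodes smooth muscle α-actin, the standard myofibroblast marker, and its start-site peak (chr19:34253957-34255897) had normalised counts of 466, 797 and 667 in Panc_OFF and 1116, 921 and 526 in Panc_ON. It had 249 and 343 in Liv_OFF, 492 and 404 in Liv_ON, 369, 410 and 539 in Lung_OFF and 399, 729 and 640 in Lung_ON. The pancreas samples were highest on the whole, but their range overlapped that of both metastatic sites. Its log2 fold change was −1.10 ± 0.31 (SE; limma adjusted p = 0.00644) in Liv_OFF against Panc_OFF and −0.53 ± 0.28 (adjusted p = 0.225) in Lung_OFF against Panc_OFF. Of 7 Acta2 peaks, 3 were lower (background 32.3%) and 1 higher (background 26.2%) in the liver. In the lungs 1 was called (background 17.3%), the peak that was higher in the liver. That peak, 15.4 kb upstream (chr19:34270277-34271624), had 82.8 to 166 in the 6 Panc samples, 260 to 509 in the 4 Liv samples and 160 to 373 in the 6 Lung samples. All Liv samples thus lay above all Panc samples, with a difference of 1.62 ± 0.37 with Smad4 off (adjusted p = 0.00156), and Lung_OFF differed from Panc_OFF by 0.88 ± 0.33 (adjusted p = 0.0901). The intronic peak 3.65 kb into Acta2 (chr19:34251528-34252342) was lower in Liv_OFF than in Lung_OFF by −0.75 ± 0.33 (adjusted p = 0.0734), a call that was lost in 9 of 27 alternatives.

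Tagln encodes transgelin, an actin-binding protein of smooth muscle and myofibroblasts. Its start-site peak (chr9:45935637-45936190) had 63.2, 69.7 and 92.6 in Panc_OFF, 222, 126 and 30.7 in Panc_ON, 42.0 and 4.18 in Liv_OFF, 9.32 and 3.05 in Liv_ON, 9.20, 13.04 and 14.6 in Lung_OFF and 19.1, 10.5 and 9.33 in Lung_ON. The pancreas samples stood above every lung sample, and Liv_OFF_1 alone among the liver samples reached into their range. The fold change was −2.33 ± 0.79 (adjusted p = 0.019) for Liv_OFF and −2.52 ± 0.71 (adjusted p = 0.029) for Lung_OFF, each against Panc_OFF, and the liver call was lost when Liv_OFF_2 was left out (−0.81), as was the lung call without Panc_OFF_3 (−1.93). CArG boxes, the sites that serum response factor (SRF) binds in smooth muscle promoters, were found by letters in this peak at chr9:45936038-45936047 (ccatatttgg) and chr9:45936161-45936170 (ccttttatgg), and in the Acta2 start-site peak at chr19:34254288-34254297 (cctaattagg). The Tagln matches lay 15 bp downstream and 108 bp upstream of the start site and the Acta2 match 1297 bp downstream. Such a match occurred in 3 of the 77 members (3.9%), in 4.35% of all nuclear peaks and in 7.73% of promoter peaks. At the second promoter peak of Tagln, 1.04 kb upstream, no organ comparison was called, with 75.9 to 196 in Panc, 99.5 to 120 in Liv and 69.97 to 112 in Lung.

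**Figure D3:**
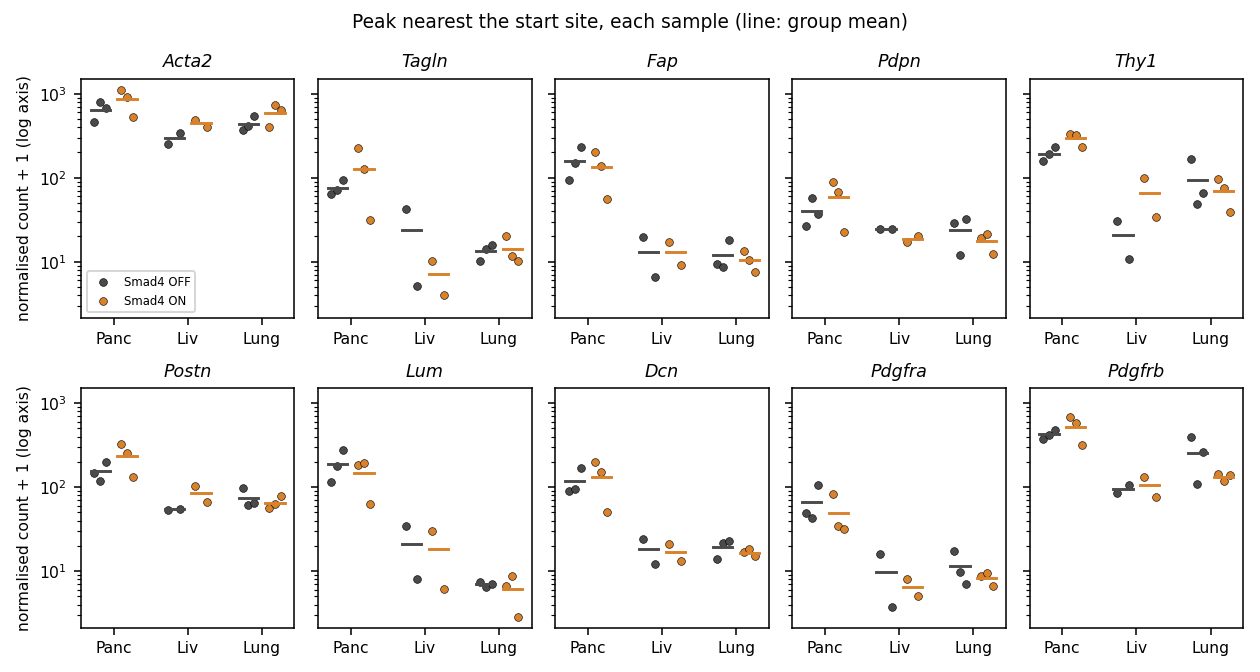
Normalised count + 1 (log axis) of the peak nearest the start site of each gene, with 1 point per sample, the group mean as a line, grey for Smad4 OFF and orange for Smad4 ON. Lum and Fap separate the pancreas from both metastatic sites without overlap, while the organs overlap at Acta2 and Pdpn.

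Among surface proteins and proteases, most Fap and Thy1 peaks were lower in both metastatic sites than in the pancreas and no Pdpn peak was, with Smad4 off. Fap encodes fibroblast activation protein, a membrane serine protease of activated fibroblasts. Its start-site peak (chr2:62573632-62574310) had 92.2, 147 and 229 in Panc_OFF and 201, 139 and 55.2 in Panc_ON, but 18.5 and 5.57 in Liv_OFF, 16.3 and 8.12 in Liv_ON, 8.28, 7.61 and 17.2 in Lung_OFF and 12.4, 9.58 and 6.53 in Lung_ON. No metastatic sample reached the lowest pancreatic one. The log2 fold change was −3.70 ± 0.59 (adjusted p = 0.000128) in Liv_OFF and −3.70 ± 0.53 (adjusted p = 0.000665) in Lung_OFF, and Liv_OFF and Lung_OFF did not differ by the test (−0.00 ± 0.59, adjusted p = 0.999). Of 6 Fap peaks, 5 were lower in Liv_OFF (background 32.3%) and 5 in Lung_OFF (background 10.7%). The exception lay 15.5 kb upstream (chr2:62589484-62589696), with 1.53 to 7.41 in Panc, 14.0 to 34.6 in Liv and 3.45 to 15.2 in Lung, and was higher in Liv_OFF than in Panc_OFF (2.60 ± 0.62, adjusted p = 0.00215) and Lung_OFF (2.17 ± 0.62, adjusted p = 0.0093).

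Thy1 encodes CD90, a GPI-anchored surface glycoprotein of fibroblasts and T cells. All 10 of its peaks were lower in Liv_OFF (background 32.3%) and 8 were lower in Lung_OFF (background 10.7%) than in Panc_OFF. The most significant of all member peaks in the liver comparison lay 97.9 kb upstream (chr9:43944783-43946219), with 726, 980 and 998 in Panc_OFF, 1150, 1164 and 812 in Panc_ON, 223 and 244 in Liv_OFF, 398 and 348 in Liv_ON, 393, 293 and 389 in Lung_OFF and 447, 445 and 444 in Lung_ON. Every pancreatic sample exceeded every metastatic one. The difference was −1.93 ± 0.19 (adjusted p = 5.53e-06) in Liv_OFF and −1.33 ± 0.17 (adjusted p = 0.000363) in Lung_OFF. At 49.7 kb upstream (chr9:43993234-43994045) counts were 81.1, 108 and 163 in Panc_OFF and 5.52, 3.26 and 1.72 in Lung_OFF, a 26.9-fold difference on the fitted scale (−4.75 ± 0.54, adjusted p = 0.000251), the smallest p of any member between lungs and pancreas. The peak nearest the start site (chr9:44048655-44049391) separated the 3 organs more gradually. It had 157 to 330 in Panc, 9.75 to 97.8 in Liv and 38.3 to 168 in Lung, and was lower in Liv_OFF than in Lung_OFF (−2.17 ± 0.55, adjusted p = 0.00492).

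Pdpn encodes podoplanin, a mucin-type glycoprotein of lymphatic endothelium, fibroblasts and some carcinomas. Its start-site peak (chr4:143299238-143299677) had 21.5 to 87.1 in Panc, 16.3 to 23.7 in Liv and 10.9 to 31.0 in Lung, and with Smad4 off no organ comparison was called, while with Smad4 restored it was lower than in Panc_ON in Liv_ON (−1.45 ± 0.55, adjusted p = 0.0343) and Lung_ON (−1.59 ± 0.50, adjusted p = 0.0282). None of the 8 Pdpn peaks was lower in Liv_OFF or Lung_OFF than in Panc_OFF (background 32.3% and 10.7%), and 3 and 2 were higher (background 26.2% and 6.59%). An intronic peak 3.65 kb from the start site (chr4:143294192-143297440) had 781 and 1201 in Liv_OFF and 710 and 970 in Liv_ON, against 103 to 285 in Panc and 109 to 399 in Lung. All 4 liver samples therefore stood above the other 12. The fold change was 2.49 ± 0.39 (adjusted p = 0.000112) against Panc_OFF and 1.71 ± 0.39 (adjusted p = 0.00249) against Lung_OFF, and 2.42 ± 0.39 (adjusted p = 0.000478) for Liv_ON against Lung_ON. The peaks called higher in Lung_OFF than in Panc_OFF lay 39.5 kb (1.92 ± 0.53, adjusted p = 0.0262) and 18.02 kb (2.28 ± 0.75, adjusted p = 0.0565) downstream of the start site. At the latter, Lung_OFF_1 had 72.7 where the other 15 samples had 1.79 to 13.9. Library Lung_OFF_1 was the highest of the 6 lung samples at 33 of the 77 member peaks (42.9%, against 26.4% of all nuclear peaks). The start-site peaks of endothelial genes in general summed to 767 in Lung_OFF_1 and to 130 to 244 in the other samples, at 4 genes with a peak within 1 kb of 6 listed. Their part in the result was not tested.

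At the matrix genes, 29 of their 30 peaks were lower in Liv_OFF than in Panc_OFF (background 32.3%) and 16 in Lung_OFF (background 10.7%). Their median log2 fold changes were −2.67 and −1.43. Among peaks within 1 Mb assigned to other genes, 45.7% around Postn, 47.7% around Lum and 47.9% around Dcn were lower in Liv_OFF. In Lung_OFF these shares were 25.9%, 15.6% and 14.0%. Postn encodes periostin, a matricellular protein that TGFβ induces. All 8 Postn peaks were lower in both metastatic sites (background 9.27%), with medians of −2.97 in Liv_OFF and −3.68 in Lung_OFF. The peak 71.1 kb downstream of the start site (chr3:54431616-54432812) had 108, 84.0 and 146 in Panc_OFF, 231, 213 and 43.7 in Panc_ON, 13.6 and 2.79 in Liv_OFF, 11.6 and 7.11 in Liv_ON, 11.05, 4.35 and 9.48 in Lung_OFF and 7.86, 2.88 and 3.73 in Lung_ON. No metastatic sample exceeded 13.6, while the lowest pancreatic sample, Panc_ON_3, had 43.7. This peak had the smallest p of the members in Lung_ON against Panc_ON (−4.58 ± 0.62, adjusted p = 0.00042). The peak nearest the start site (chr3:54358426-54359104) was lower by a smaller amount, −1.48 ± 0.36 (adjusted p = 0.00242) in Liv_OFF and −1.08 ± 0.32 (adjusted p = 0.038) in Lung_OFF. At 86.0 kb downstream, Liv_OFF stayed above Lung_OFF by 1.83 ± 0.64 (adjusted p = 0.0278) while both were below the pancreas. That call between liver and lungs was lost with a pseudocount of 10 or without Liv_OFF_1, and the value ranged from 0.68 to 2.27 over the alternatives. Just past the 100 kb limit, a Postn peak at 100.4 kb had 24.5 to 81.8 in Panc, 1.02 to 15.1 in Liv and 0 to 3.83 in Lung, and just inside it a Dcn peak at 99.7 kb had 6.90 to 24.1, 1.02 to 4.66 and 1.12 to 7.36.

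Lum and Dcn, neighbours on chromosome 10, encode lumican and decorin, small leucine-rich proteoglycans that organise collagen fibrils, and decorin also binds TGFβ. At both genes the start-site peak was lower in liver and lungs than in the pancreas with Smad4 off, whereas several upstream peaks were lower in the liver and not called in the lungs. The Lum start-site peak (chr10:97564896-97565979) had 115, 176 and 272 in Panc_OFF, 185, 194 and 62.9 in Panc_ON, 33.3 and 6.97 in Liv_OFF, 29.1 and 5.08 in Liv_ON, 6.44, 5.43 and 6.03 in Lung_OFF and 5.62, 7.67 and 1.87 in Lung_ON. The difference from Panc_OFF was −3.43 ± 0.73 (adjusted p = 0.00097) in Liv_OFF and −4.68 ± 0.65 (adjusted p = 0.000563) in Lung_OFF, and no metastatic sample overlapped the pancreas. The peak 9.16 kb upstream (chr10:97555578-97556359), from which the second stretch above was taken, had 143, 169 and 193 in Panc_OFF, 284, 243 and 202 in Panc_ON, 13.6 and 16.7 in Liv_OFF, 61.7 and 21.3 in Liv_ON, 147, 65.2 and 145 in Lung_OFF and 88.7, 103 and 116 in Lung_ON. Here Lung_OFF_1 and Lung_OFF_3 fell within the pancreatic range, and all lung samples lay above all liver samples. It had the smallest p of the members in Liv_OFF against Lung_OFF (−2.81 ± 0.40, adjusted p = 9.67e-05), with −3.39 ± 0.40 against Panc_OFF (adjusted p = 1.5e-05) and −0.58 ± 0.36 for Lung_OFF against Panc_OFF (adjusted p = 0.314). With Smad4 restored, Lung_ON was below Panc_ON by −1.23 ± 0.36 (adjusted p = 0.0195). At 27.7 kb upstream (chr10:97536954-97537914) the counts were 150 to 287 in Panc, 23.7 to 68.7 in Liv and 84.8 to 228 in Lung, with −2.58 ± 0.39 for Liv_OFF against Lung_OFF (adjusted p = 0.000144).

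The Dcn start-site peak (chr10:97479141-97479811) had 89.7, 94.7 and 166 in Panc_OFF, 196, 149 and 49.8 in Panc_ON, 23.4 and 11.1 in Liv_OFF, 19.8 and 12.2 in Liv_ON, 12.9, 20.6 and 21.5 in Lung_OFF and 15.7, 17.3 and 14.0 in Lung_ON. It was lower than in Panc_OFF by −2.71 ± 0.51 in Liv_OFF (adjusted p = 0.000389) and −2.58 ± 0.45 in Lung_OFF (adjusted p = 0.00211). Yet only 4.10 kb upstream (chr10:97475147-97475867) the lungs held 111, 63.0 and 77.5 with Smad4 off and 109, 84.3 and 108 with it restored, within the pancreatic range of 66.6 to 201 except for the single value of 63.0, and the liver held 12.5 to 23.3. There Liv_OFF was lower than Lung_OFF by −2.44 ± 0.37 (adjusted p = 0.000153) and Lung_OFF differed from Panc_OFF by 0.12 ± 0.33 (adjusted p = 0.851). At 37.0 kb upstream (chr10:97442185-97443075) Lung_OFF with 446, 266 and 285 was above Panc_OFF with 190, 223 and 217 (0.63 ± 0.23, adjusted p = 0.087), and Liv_OFF with 116 and 85.0 was below both. In contrast, 70.0 kb upstream (chr10:97408893-97410334) the counts were 88.1 to 376 in Panc, 6.09 to 40.8 in Liv and 0.958 to 22.1 in Lung, with −4.22 ± 0.87 in Liv_OFF (adjusted p = 0.000798) and −3.84 ± 0.78 in Lung_OFF (adjusted p = 0.00495). Of 18 Dcn peaks, 17 were lower in Liv_OFF (background 32.3%) and 6 in Lung_OFF (background 10.7%) than in Panc_OFF. Between the metastatic sites, 10 were lower in Liv_OFF than in Lung_OFF (background 26.8%).

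**Figure D4:**
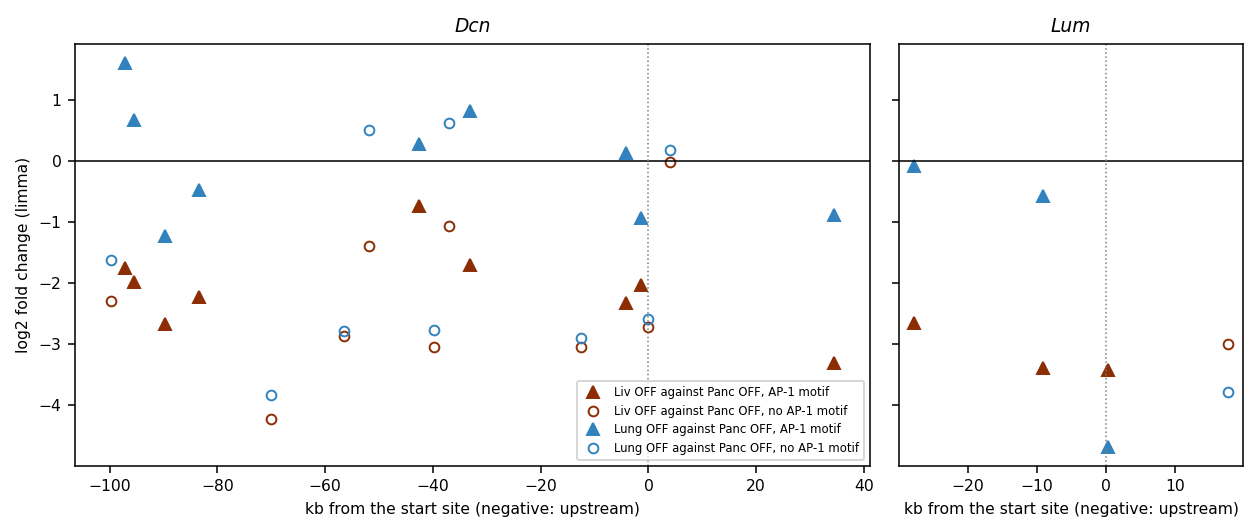
Limma log2 fold change against Panc OFF (vertical axis) of each Dcn and Lum peak by its distance from the start site in kb (horizontal axis, negative upstream), brown for Liv OFF and blue for Lung OFF, with triangles where the peak holds the AP-1 consensus. At Dcn, the blue triangles lie between −1.23 and 1.60, and the 6 peaks lower in both organs are open circles; at Lum, the start-site peak is a triangle low in both.

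The share of peaks with an AP-1 match differed along the same division. The motif TGANTCA was present in 19 of the 21 member peaks that were lower in the liver and not called in the lungs (90.5%), and in 12 of the 36 that were lower in both (33.3%). Over all nuclear peaks the shares were 51.4% in all, 69.9% of the 30650 with the first pattern and 48.6% of the 12672 with the second. Widths differed too, with medians of 721 and 568.5 bp in the members, and per kilobase the members held 1.61 and 0.522 matches, against 1.39 and 0.958 in all peaks of those patterns. At Dcn, 9 of 10 peaks of the first kind and 0 of 6 of the second held a match. At Thy1 the numbers were 2 of 2 and 5 of 8, and at Postn, where all peaks were of the second kind, 1 of 8. The peaks were grouped by calls that share the Panc_OFF samples, and these shares are given as a description without a test.

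The PDGF receptors are the tyrosine kinases through which PDGF ligands drive fibroblasts and pericytes. Around the start sites of Pdgfra the narrow peaks were low in both metastatic sites. The start-site peak (chr5:75152065-75152375) had 30.7 to 105 in Panc, 2.79 to 14.8 in Liv and 5.60 to 16.6 in Lung, without overlap between pancreas and metastases, and the differences were −2.97 ± 0.63 (adjusted p = 0.00101) in Liv_OFF and −2.51 ± 0.57 (adjusted p = 0.00913) in Lung_OFF. A broad promoter peak beside it (chr5:75154149-75157411) had 989 to 1737 in Panc, 539 to 703 in Liv and 545 to 1095 in Lung, and a difference of −0.71 ± 0.21 (adjusted p = 0.00765) in Liv_OFF. Far downstream, the peak 97.9 kb from the start site (chr5:75253223-75254447) had 65.8, 75.0 and 28.7 in Panc_OFF, 23.1, 35.9 and 34.5 in Panc_ON, 389 and 567 in Liv_OFF, 273 and 292 in Liv_ON, 73.6, 166 and 79.3 in Lung_OFF and 68.5, 62.3 and 70.9 in Lung_ON. All liver samples exceeded all others, by 8.84-fold in Liv_OFF over Panc_OFF (3.14 ± 0.40 on the log2 scale, adjusted p = 2.4e-05), the smallest p of any raised member, and by 2.23 ± 0.40 over Lung_OFF (adjusted p = 0.000449). It is assigned by nearest start site, which does not show that it acts on Pdgfra.

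Pdgfrb encodes the β receptor, a marker of pericytes as well as fibroblasts. Its start-site peak (chr18:61044651-61045577) had 372, 419 and 478 in Panc_OFF, 676, 581 and 320 in Panc_ON, 85.2 and 104 in Liv_OFF, 133 and 75.2 in Liv_ON, 396, 109 and 265 in Lung_OFF and 142, 117 and 139 in Lung_ON. Lung_OFF_1 was the only metastatic sample within the pancreatic range. The liver was lower than the pancreas by −2.15 ± 0.41 (adjusted p = 0.000503) and lower than the lungs by −1.25 ± 0.41 (adjusted p = 0.0213), a call lost without Liv_OFF_1, and the lungs differed from the pancreas by −0.90 ± 0.37 (adjusted p = 0.125). In an intron 26.9 kb downstream Lung_OFF did not differ from Panc_OFF by the test (0.34 ± 0.37, adjusted p = 0.591) and Liv_OFF was lower than Lung_OFF by −1.64 ± 0.41 (adjusted p = 0.00419).

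The peaks nearest the start site of each gene were also read as a set of 10, of which 8 lay within 1 kb of the start site and those of Thy1 and Postn farther away. Of the 10, 9 were lower in Liv_OFF than in Panc_OFF (against 32.3% of all peaks and 9.17% of promoter peaks), with Pdpn the exception. In Lung_OFF 6 were lower (against 10.7% and 3.77%), with Acta2, Pdpn, Thy1 and Pdgfrb the exceptions. With Smad4 restored, 10 were lower in the liver (against 32.2% and 9.62%) and 9 in the lungs (against 14.9% and 5.35%), with Acta2 the exception. Liver and lungs differed at 2 of the 10 with Smad4 off (Thy1 and Pdgfrb, against 49.7% of all peaks and 27.8% of promoter peaks) and at 0 with it restored (against 35.8% of all peaks). The order of liver and lungs at Acta2, Tagln, Fap, Pdpn, Postn, Lum, Dcn and Pdgfra was not resolved beyond the spread of the replicates.

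Whether restoring Smad4 changed these loci was asked within each organ. No member peak was called in the pancreas, liver or lungs (0 of 77 each, background 3.42%, 0.55% and 0.00366%, of which 0.364%, 0.462% and 0.00146% higher and 3.06%, 0.0886% and 0.0022% lower). At an unadjusted p under 0.05 there were 3, 7 and 10 members, and the smallest adjusted p was 0.226, 0.17 and 0.521. On the recovered reads, edgeR also called 0 in each organ and DESeq2 called 0 in the pancreas, 3 in the liver (all higher) and 0 in the lungs. The share of all peaks that DESeq2 called in the liver is not given here, so its 3 calls are not read as a result about the members. Among the 10 peaks nearest a start site, the largest fold change was at Thy1 in the liver, at the peak 2711 bp away, where Liv_ON with 97.8 and 33.5 stood above Liv_OFF with 29.6 and 9.75 (1.69 ± 0.61, adjusted p = 0.267). Liver values of Thy1 3.40 kb upstream (1.01 higher, adjusted p = 0.17), Thy1 97.9 kb upstream (0.67, adjusted p = 0.184) and Lum 9.16 kb upstream (1.22, adjusted p = 0.262) were also above Liv_OFF without passing. In the lungs all 8 Pdpn peaks had negative values (−2.14 to −0.38) and none passed (smallest limma adjusted p = 0.544). The summed count of the 8 was 1175, 501 and 790 in Lung_OFF and 339, 449 and 252 in Lung_ON, without overlap between the groups. Lung sums of Pdgfra (1468, 999 and 1017 against 896, 742 and 741) and Tagln (151, 129 and 128 against 125, 98.7 and 114) did not overlap either. Those of the other members did. The share of all genes with such a gap is not given here, so it is not read as a result about Pdpn. Endothelial start-site peaks summed to 767, 224 and 171 in Lung_OFF and 236, 156 and 184 in Lung_ON. Their part in the Pdpn values was not tested. In the pancreas the start-site values ranged from −0.44 at Pdgfra to 0.61 at Thy1 and in the lungs from −0.77 at Pdgfrb to 0.40 at Acta2, each with an adjusted p above the threshold of 0.1. The standard errors at these peaks were 0.28 to 0.71 in the pancreas and lungs, so small changes there were not detectable with these replicates.

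Averaged over the organs, 2 members were lower and 0 higher with Smad4 restored (2.6% called, background 6.62%, of which 3.0% lower and 3.61% higher). They were the Tagln peak 8.08 kb upstream, within an intron of Sidt2 (chr9:45943954-45944319, −0.67 ± 0.20, adjusted p = 0.0575), and the Pdgfra peak 97.9 kb downstream (−0.68 ± 0.22, adjusted p = 0.0823). Both were higher in Liv_OFF than in Panc_OFF and Lung_OFF, and both were lower with Smad4 restored in all 3 organs, by −0.75, −0.85 and −0.40 at the Tagln peak and −0.75, −0.73 and −0.55 at the Pdgfra peak in Panc, Liv and Lung. These calls depended on single libraries, since without Liv_ON_1, Lung_OFF_2 or Lung_ON_2 there were 0, without Lung_OFF_1 5 and without Liv_ON_2 6. The effect of restoration differed between no pair of organs at any member by limma (0 called, background 0.0% for each interaction). Without Lung_OFF_2, 5 members were called for Lung against Panc, and the share of all peaks called in that fit is not given here.

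The pancreatic samples differed among themselves. The summed count over the 36 peaks that were lower in liver and lungs was 3977, 4609 and 6394 in Panc_OFF and 7619, 6760 and 3192 in Panc_ON. It was 796 to 1613 in Liv, highest in Liv_ON_1, and 820 to 1495 in Lung. The 36 peaks were picked by calls with Smad4 off, so the gap among the OFF samples follows from that choice. Panc_ON_1 was the highest pancreatic sample at 19 of the 36 and Panc_ON_3 the lowest at 26 (72.2%), and Panc_ON_3 was also lowest at 74.0% of all nuclear peaks with that pattern and at 27.8% of all nuclear peaks. At the 21 peaks lower in the liver and not called in the lungs with Smad4 off, Panc_ON_3 was lowest at 6 and highest at 4. Their sums were 3600, 4009 and 4533 in Panc_OFF, 6235, 4991 and 4249 in Panc_ON, 1512 to 2380 in Liv, 3905, 2342 and 3291 in Lung_OFF and 2844, 3002 and 2872 in Lung_ON. All Lung samples but Lung_OFF_1 thus lay below every Panc sample. Of the 21 peaks, 10 were called lower in Lung_ON than in Panc_ON (14.9% of all nuclear peaks). The share among all peaks with that pattern is not given here. The missing call with Smad4 off therefore does not show equal accessibility in lungs and pancreas. Without Panc_ON_3, 55 in place of 52 members were called in Lung_ON against Panc_ON and 64 in place of 63 in Liv_ON against Panc_ON.

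**Figure D5:**
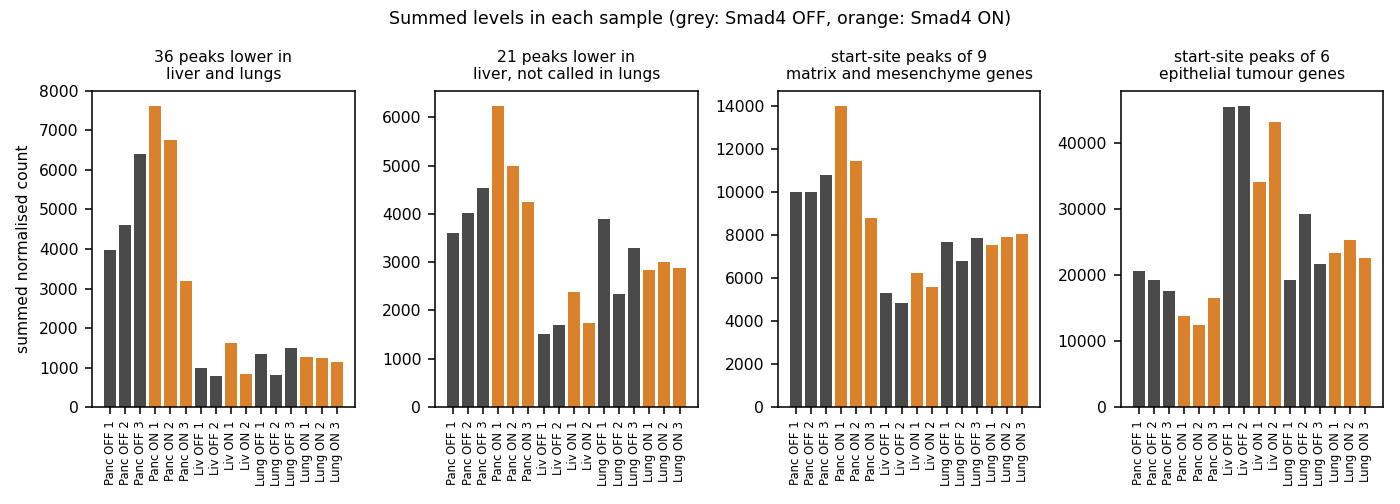
Summed normalised counts in each of the 16 samples (bars from 0, grey for Smad4 OFF and orange for Smad4 ON) of the 36 and the 21 member peaks and of the start-site peaks of 9 matrix and mesenchyme and 6 epithelial tumour genes. The first panel falls from 3192 to 7619 in the pancreas to 796 to 1613 in both metastatic sites, the second falls in the liver more than in the lungs, and the epithelial panel is highest in the liver. The 36 and 21 peaks were picked by calls against Panc OFF in these same samples, so their falls among the OFF samples follow from that choice.

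Genes from lists set alongside the members were also read at their start-site peaks. Of 9 matrix and mesenchyme genes with a peak within 1 kb, 9 were lower in Liv_OFF and 4 in Lung_OFF than in Panc_OFF. Among all promoter peaks, 9.17% were lower and 23.6% higher in Liv_OFF, and 3.77% lower and 2.67% higher in Lung_OFF, which is the background for each list here. The matrix genes ranged in the liver from −0.61 at Vim (vimentin, the intermediate filament of mesenchymal cells) to −3.30 at Bgn (biglycan, another small proteoglycan), and Col1a1, whose locus carries the shRNA cassette, was at −0.82. Of 5 contractile genes, 2 were lower in both (Myl9 at −2.18 and −2.30, Cald1 at −2.17 and −1.60, in liver and lungs). The other 3 were not called, with liver values of 0.07 at Cnn1, 0.36 at Tpm1 and 0.49 at Tpm2, and the summed count of the 5 was 8585 and 8847 in Liv_OFF against 7043 to 7650 in Panc_OFF. Among 5 transcription factors of fibroblasts and smooth muscle, 4 were lower in the liver, with the lowest value at Prrx1, a homeobox factor of mesenchyme (−3.13), while Srf was at 0.44 and not called. All 3 adventitial fibroblast genes with a peak (Dpt, Cd34 and Col15a1) and 2 of 5 inflammatory fibroblast genes (Cxcl12 and Has1) were lower in the liver, and the 2 pericyte genes with a peak (Notch3 and Mcam) were not called. In the opposite direction, 3 of 4 PDGF ligand genes were higher in the liver (Pdgfa at 0.81, Pdgfb at 0.90 and Pdgfd at 0.99) and 0 in the lungs. The 6 epithelial tumour genes were all higher in Liv_OFF than in Panc_OFF, by 0.99 to 2.06, and none was called in Lung_OFF. Of the hepatic stellate list, 1 of 2 genes with a peak was called, Vipr1, higher in the liver at 1.46. Leukocyte start sites (2 genes with a peak of 6) summed to 460 to 796 in Liv and 215 to 420 elsewhere, hepatocyte ones (1 of 6) to 164 to 242 in Liv and 20.4 to 96.7 elsewhere, and acinar ones (1 of 4) to 288 to 490 in Liv and 54.2 to 164 elsewhere. Lung epithelial (1 of 4) and mesothelial (1 of 3) ones ranged from 14.2 to 59.9 and from 727 to 1402 over all samples. The part of these cell types in the member values was not tested.

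The surroundings of the loci were read as well. Peaks within 1 Mb that were assigned to other genes had median log2 fold changes for Liv_OFF against Panc_OFF of 0.56 around Thy1, 0.25 around Pdgfrb and −0.28 around Fap, where the members' own medians were −2.80, −2.15 and −2.69. Around Postn, Lum and Dcn the surroundings were lower as well (−0.97, −0.79 and −0.89, against −2.97, −3.19 and −2.26), and around Pdgfra they came near the gene's own median (−1.34 against −1.57). Around Pdpn the surroundings were more raised than the gene's own peaks (1.04 against 0.58), and around Acta2 and Tagln they were at 0.26 each (against −0.34 and −0.11). For Lung_OFF against Panc_OFF the surroundings of all 10 loci lay between −0.26 at Pdgfra and 0.45 at Pdpn. Over the 16 samples, mean log2 accessibility of Lum correlated with that of Thy1 (Pearson r = 0.979) and that of Postn with Thy1 (0.95) and Fap (0.943), while Acta2 reached at most 0.368 with any other member and Pdpn at most 0.141. These coefficients are descriptions over 16 samples that were grouped by organ and differed in library depth.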

How the data were processed

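ATAC-seq was measured in 16 samples of 6 groups (Panc, Liv and Lung, each with Smad4 OFF or ON). The deposited table held a signal per peak, read counts divided by DESeq2 size factors by the authors, for 136631 peaks that they called with MACS2 after trimming (Trim Galore, cutadapt), Bowtie2 alignment to mm10 and merging, and counted with featureCounts. FastQC 0.11.5 is named in the submitters' notes. Dividing by the value of 1 read gave whole reads for 100.0% of values (within 0.01 read), so the depth in peaks was 23.0 to 38.2 M reads per sample. Such depth resolves most member peaks, but counting error is large where a peak holds few reads. One mitochondrial row (1.43 to 3.56% of reads) was left out. Scaling by size factors assumes that most peaks do not differ between organs.

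Peaks were assigned by midpoint to the nearest protein-coding start site of GENCODE vM21 basic within 100 kb, by the given rule. Values were tested as log2(normalised count + 1) with limma 3.58.1 (trend and robust, R 4.3.3) in a single fit of 6 group means, so fold changes are on that scale and understate those of low peaks. P-values were adjusted over 136630 peaks by Benjamini-Hochberg, and calls were made at a log2 change of 0.58 or more in size with an adjusted p no higher than 0.1. The fit was also run on simulated counts that had no outlying library, unlike these data. The outcome of that run is not given here. Motifs were searched in RefSeq GRCm38 sequence with pysam 0.24.0 under Python 3.11.15 (numpy 2.4.6, pandas 2.3.3), and figures were drawn with matplotlib 3.10.9. Alternatives were a pseudocount of 10, TMM factors, a filter at a mean of 20, GC correction, stricter thresholds (1 and 0.05), quantile normalisation, tests of the recovered reads by edgeR 4.0.16 and by DESeq2 1.42.0, fits of only the groups compared, other assignments, a replicate block and leaving out each sample.

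The members, the gene lists and the tests were chosen with earlier results of these data known. The rule for naming took each gene's start-site peak and the called peak with the smallest p between Liv_OFF and Lung_OFF, and for other comparisons the called peak of smallest p in each direction. Further peaks and list genes in the text were picked after their values were seen. In the lungs the deviations of same-numbered OFF and ON samples had correlations of 0.491, 0.124 and 0.214, against −0.34 to 0.184 for the other pairs. Only the same-numbered pair with Lung_OFF_1 stood clear of the others, so pairing by number was not established. The same-numbered values were −0.33, 0.027 and −0.33 in the pancreas (other pairs −0.114 to 0.363) and 0.083 in the liver (other pairs −0.083). The labels give no shared litter or day. Not every allele that the lines share is reported here.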

Additional observations from a re-analysis of the deposited data

How the results depend on the processing

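Of the recomputed counts of called members, 343 stayed within 1.5 times the value reported and 37 did not. A count of 0 against a reported 0 was taken as staying, which holds for most alternatives of restoration within an organ and of the interactions. For restoration averaged over organs, 9 of 29 alternatives stayed. Of the recomputed values of named peaks, 680 kept direction and call, 21 kept direction only and 0 reversed. Fewer peaks were members when only those in or within 5 kb of the gene body were taken (38 peaks), with 12 called in Liv_OFF against Lung_OFF, 27 in Liv_OFF against Panc_OFF, 13 in Lung_OFF against Panc_OFF, 9 in Liv_ON against Lung_ON, 27 in Liv_ON against Panc_ON, 21 in Lung_ON against Panc_ON and 0 for restoration averaged over organs. In the same order, 27, 65, 40, 21, 63, 52 and 2 of the 77 members were called. Of all nuclear peaks, 49.7%, 58.5%, 17.3%, 35.8%, 59.4%, 27.8% and 6.62% were. The shares of the 38 were thus lower than those of the 77 against the pancreas. Within 50 kb (57 peaks) the counts were 26 in Lung_OFF against Panc_OFF, 34 in Lung_ON against Panc_ON and 1 for the average. DESeq2 called 3 members for restoration in the liver. The average effect of restoration had 1 call with a pseudocount of 10, quantile normalisation, GC correction or the replicate block with GC correction, and 0 with thresholds of 1 and 0.05; the cause was not tested. Leaving out single samples gave 19 to 29 calls in Liv_OFF against Lung_OFF, 57 to 65 in Liv_OFF against Panc_OFF, 26 (without Panc_OFF_3) to 45 in Lung_OFF against Panc_OFF, 11 (without Liv_ON_2) to 23 in Liv_ON against Lung_ON, 45 to 64 in Liv_ON against Panc_ON and 45 to 55 in Lung_ON against Panc_ON. For restoration it gave 0 to 1 in the pancreas (1 without Lung_OFF_1), 0 to 2 in the liver (2 without Liv_ON_2, 1 without Liv_OFF_2, Lung_OFF_1 or Lung_OFF_2), 0 in the lungs, 0 to 6 for the average and 0 to 5 for lungs against pancreas (5 without Lung_OFF_2). Where it leaves a liver group with 1 sample, that sample is assumed to vary like the other groups. With the replicate number as a block, restoration called 0 members in each organ and 3 on average. With the replicate block kept in the lungs only, restoration called 0 there and 2 on average, and the block changed no count by over 1.5 times.

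Named calls that were lost concerned the leading Acta2 peak between liver and lungs (9 of 27 alternatives, −1.01 to −0.39), the leading Tagln peak (3), the start-site peak of Postn in the lungs (3), the Postn peak 86.0 kb downstream between liver and lungs (2, lowest value 0.68), and the start-site peaks of Tagln, Thy1 and Pdgfrb when 1 sample was left out. With 2 liver samples per group and 62 of 77 members at a mean count of at least 20, small changes at weak peaks were not detectable.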

Other observations

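Outside the 10 loci, the gene whose mean accessibility over its peaks correlated most with that of each marker over the 16 samples was Tmem119 for Lum (Pearson r = 0.993), P3h2 for Thy1 (0.99), 4933400A11Rik for Postn (0.986), Mdfic for Dcn (0.985), 9530077C05Rik for Fap (0.976), Gpr176 for Pdgfrb (0.975), Hs3st6 for Pdgfra (0.962), Nr2f1 for Tagln (0.946), Myrfl for Pdpn (0.82) and Fam204a for Acta2 (0.777). Genes with at least 3 peaks and a start site over 1 Mb away were considered. The coefficients are descriptions without a test, since the samples were grouped by organ and differed in depth.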
